A study of Mus musculus with 7 samples.

Results

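The muscle miRNAs, or myomiRs, are the small regulatory RNAs most characteristic of heart and skeletal muscle, here examined in brain tissue from TAp73 knockout and wild type mice. The members were all mouse miRNA names with the stem miR-1a, miR-133a, miR-133b, miR-206, miR-208a, miR-208b or miR-499, whatever the copy number or arm, and 15 of the 1914 mouse miRNAs in the count tables met this rule. Small RNA had been sequenced from lateral ventricles together with choroid plexus, taken from adult mice of strain C57BL/6J, in 4 TAp73 knockout libraries and 3 wild type libraries. TAp73 denotes the p73 isoforms with a transactivation domain, which act as transcription factors, and the study's title concerns its posttranscriptional role in forming the multiciliated cells of the brain. The sources used here do not give the knockout allele, the sex of the mice or any pooling of animals, so p-values measure only the spread between these libraries, which may be technical. Levels are reads per 1000000 mouse miRNA reads of the library (CPM).

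A miRNA is cut from a hairpin precursor, and either arm of the hairpin (5p or 3p) can be kept as the mature strand that guides repression of messenger RNAs through its seed, bases 2 to 8. miR-1a and miR-133a are made from shared primary transcripts in heart and skeletal muscle, and miR-206 and miR-133b from another such transcript in skeletal muscle. miR-208a, miR-208b and miR-499 lie within myosin heavy chain genes and take part in the switch between fast and slow or foetal and adult myosins. None of these families is known as a leading miRNA of ventricle wall or choroid plexus.

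Mature sequences from RefSeq (build GRCm38.p6) were used for 11 of the 15 members, between 21 and 23 nucleotides long. Part of the RefSeq set was left out, and the part used had none for miR-1a-3p, miR-1a-2-5p, miR-133a-5p and miR-133a-3p. The comparisons of seeds and of transcript stretches below therefore do not cover these members. The following are shown because they carry the reads discussed below or, for miR-133b-3p, because its transcript partner miR-206-3p had reads, with the seed in capitals.
miR-208a-5p: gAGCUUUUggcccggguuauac
miR-208a-3p: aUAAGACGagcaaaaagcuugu
miR-208b-3p: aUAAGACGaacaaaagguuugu
miR-499-5p: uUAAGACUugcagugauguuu
miR-206-3p: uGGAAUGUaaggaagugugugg
miR-133b-3p: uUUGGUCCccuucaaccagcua
The 3p strands of miR-208a and miR-208b had the same seed and differed at 3 of 22 positions, as G10A, A16G and C18U, counted from 1 at the 5′ end with the miR-208a-3p base first. miR-499-5p matched miR-208a-3p over 6 bases from base 2 and first departed from it within the seed at G8U. The seed of miR-208a-5p was shared with miR-208b-5p and miR-6415, which together held 0 reads.

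The genes of these strands lie at known muscle loci (GRCm38, GENCODE M21). Mir208a (chromosome 14, 54949060 to 54949142, minus strand) lies in an intron of Myh6, the alpha cardiac myosin heavy chain gene, on its strand. Mir208b (chromosome 14, 54975700 to 54975776, minus strand) lies in an intron of Myh7, which encodes the beta or slow heavy chain. Mir499 (chromosome 2, 155622880 to 155622958, plus strand) lies in an intron of Myh7b. Mir206 (chromosome 1, 20679010 to 20679082, plus strand) and Mir133b (20682769 to 20682887) overlap exons of the long noncoding RNA gene Gm28653 on the same strand.

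The libraries held between 955057 mouse miRNA reads (knockout replicate 3) and 9233235 (knockout replicate 1), so that 1 read stood for 1.05 CPM in the shallowest and 0.108 CPM in the deepest. Wild type replicate 2 was closer to knockout replicates 2 and 4 (Pearson r = 0.991 each, over log2(CPM + 1) of the tested miRNAs) than to wild type replicates 1 and 3 (0.986 and 0.984). Marker miRNAs of the labelled tissue were present in every library, with miR-204-5p of choroid plexus epithelium between 2006 and 11775 CPM. The liver miRNA miR-122-5p, a yardstick from an organ outside the brain, held 19 reads in all and a mean of 0.613 CPM.

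Muscle miRNAs were rare in this tissue. Together the 15 members held 509 of 30322137 mouse miRNA reads, and their summed level was 16.7 ± 3.37 CPM (SD, n = 7). miR-133a-3p was the most abundant at 5.08 ± 2.37 CPM, followed by miR-208a-5p at 3.99 ± 1.75 CPM, miR-208b-3p at 3.52 ± 1.37 CPM and miR-499-5p at 2.40 ± 1.47 CPM (SD, n = 7 for each). These means lay within 1 SD of their neighbours in this order. Next came miR-206-3p at 0.759 ± 0.476 CPM, about the level of the liver miRNA. miR-208a-3p, miR-1a-3p and miR-133a-5p had means of 0.354, 0.303 and 0.260 CPM, and miR-499-3p had 1 read in all. In the order of all mouse miRNAs miR-133a-3p ranked 465, and the median level of the 534 miRNAs that passed the filter for testing was 37.8 CPM. Adapter ligation during library making favours some sequences over others and was not corrected, so that an order of miRNAs by reads is only an approximate order of molecules.

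**Figure D1:**
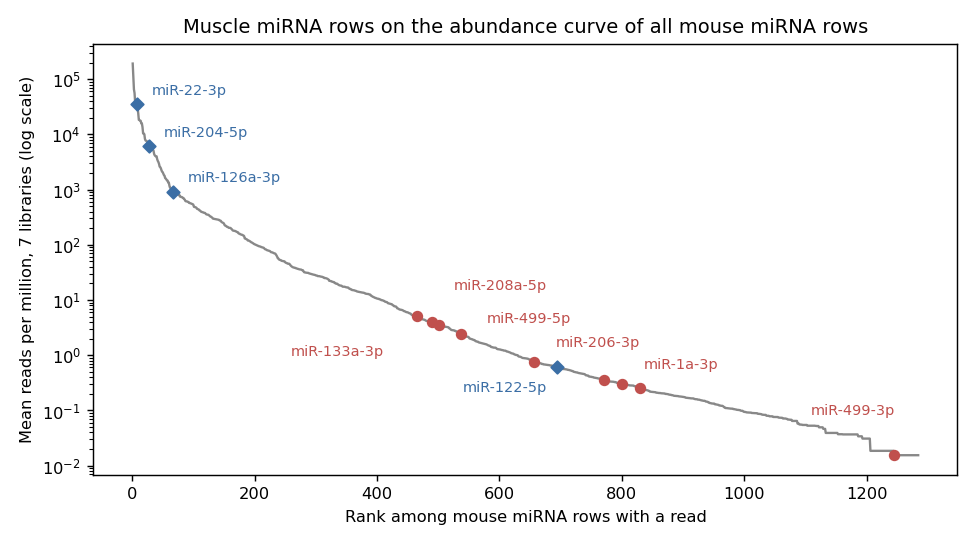
Mean level over the 7 libraries (CPM, log scale) against rank for all mouse miRNAs with a read (grey line), with the muscle miRNAs as red points and miR-22-3p, miR-204-5p, miR-126a-3p and miR-122-5p as blue diamonds. The highest muscle miRNA, miR-133a-3p, stands at rank 465, and miR-1a-3p lies below the liver miRNA miR-122-5p.

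miR-1a-3p, a leading miRNA of striated muscle, was near 0 here. It held 9 reads in all, against 148 for miR-133a-3p, its partner from the same primary transcripts. In each of the 7 libraries miR-133a-3p had more reads than miR-1a-3p. The read counts of miR-1a-3p were 2, 2, 0 and 0 in knockout replicates 1 to 4 and 1, 1 and 3 in wild type replicates 1 to 3, so no library exceeded the 3 reads that a count of 0 allows. With each library weighted equally, the miR-208 family summed to 7.87 ± 0.949 CPM, the miR-133 family to 5.34 ± 2.52 CPM, miR-499 to 2.42 ± 1.47 CPM, miR-206 to 0.759 ± 0.476 CPM and miR-1a to 0.303 ± 0.286 CPM (SD, n = 7). miR-208 did not lead everywhere: the wild type means were 7.54 CPM for miR-208 and 7.59 CPM for miR-133, and in wild type replicate 2 miR-133 was higher, at 8.59 against 6.78 CPM. Here the term muscle miRNA refers to the names of the members, and the cells that gave the reads were not identified.

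Of the 15 members, 6 had 0 reads in all 7 libraries, namely miR-1a-1-5p, miR-1a-2-5p, miR-206-5p, miR-208b-5p, miR-133b-5p and miR-133b-3p. A count of 0 over the pooled mouse miRNA reads allows up to 0.0989 CPM, for counting error only. How reads of near-identical miRNAs were assigned is not stated in the sources used here, and miR-133b-3p is nearly identical to miR-133a-3p, so that the split between them is uncertain. A related name outside the rule, miR-133c, also held 0 reads, and miR-1b-3p held 4. A 0 in these tables was not limited to rare miRNAs: miR-126a-5p held 0 reads while the other strand of its hairpin, miR-126a-3p of endothelium, held 28839. Whether reads of the members were lost at the counting step was not tested. The 149 names of other species with these stems held 0 reads.

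Most members were detected in the deepest library and fewest in the shallowest. Of the 9 members with a read, 9, 8, 4 and 6 were seen in knockout replicates 1 to 4, and 8, 7 and 6 in wild type replicates 1 to 3. Only miR-133a-3p, miR-208a-5p and miR-208b-3p had a read in every library. miR-499-5p and miR-206-3p were seen in 6 libraries each, and miR-208a-3p and miR-1a-3p in 5 each. With each library scaled to the total of the shallowest, at least 1 read was expected for 4 or 5 members in every library. The difference in detected members between the deepest and the shallowest library was therefore 9 against 4 as deposited and 5 against 4 at equal depth.

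The strand that held the counted reads differed between the paired cardiac hairpins. From miR-208a, 143 of 153 reads were 5p, or 93.5% (exact Clopper-Pearson 95% interval 88.3 to 96.8). From miR-208b, 0 of 87 reads were 5p, with an upper bound of 4.15%. This bound covers counting error only. Whether reads of miR-208b-5p were lost at the counting step was not tested, so a difference in strand choice is not established. The hairpins are shown in full, with the strand that held the reads in capitals (GRCm38.p6, minus strand, chr14:54949060-54949142 and chr14:54975700-54975776).
Mir208a: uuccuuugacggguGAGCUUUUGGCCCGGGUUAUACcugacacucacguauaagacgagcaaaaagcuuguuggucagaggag
Mir208b: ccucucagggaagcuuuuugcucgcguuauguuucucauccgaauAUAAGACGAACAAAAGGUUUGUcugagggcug
The strand known from heart is 3p in both. By library, the 5p share of miR-208a was 98.1% of 52 reads, 97.5% of 40, 100% of 1 and 88.5% of 26 in knockout replicates 1 to 4. It was 92.3% of 13, 100% of 7 and 71.4% of 14 in wild type replicates 1 to 3, where the last had an interval of 41.9 to 91.6. Each library thus had more 5p than 3p reads, and each also had only 3p reads from miR-208b. No GENCODE transcript outside miRNA genes held a stretch of 16 bases of miR-208a-5p or miR-208b-3p on its sense strand. Other members with reads had such a stretch, miR-206-3p (26 reads) in Gm28653, miR-499-5p (75 reads) in Gm34934 and miR-499-3p (1 read) in Gm43484. Of the counted reads, 93.7% of 158 from miR-133a were 3p, 98.7% of 76 from miR-499 were 5p and all 26 from miR-206 were 3p. In each of these hairpins this is the strand usually kept. For miR-206-5p, at 0 reads, loss at the counting step was likewise not tested.

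The comparison of knockouts with wild types asked whether levels changed without TAp73. miR-133a-3p, which in the heart restrains proliferation and smooth muscle genes, had 38, 37, 2 and 10 reads in knockout replicates 1 to 4, or 4.12, 4.81, 2.09 and 2.58 CPM. In wild type replicates 1 to 3 it had 21, 18 and 22 reads, or 7.78, 8.14 and 6.03 CPM. The 4 knockouts all lay below the 3 wild types. The means were 3.40 ± 1.27 CPM among knockouts (SD, n = 4) and 7.32 ± 1.13 CPM among wild types (SD, n = 3). Their ratio was 0.464, with each library weighted equally and scaled by its total only. The fit of edgeR also applied TMM scaling, and deeper libraries counted for more in it. In edgeR's quasi-likelihood test the log2 fold change, knockout minus wild type, was -0.85 ± 0.33 (SE), a ratio of 0.554 with a 95% interval of 0.336 to 0.911. Its unadjusted p was 0.024 and its p adjusted over the 534 tested miRNAs was 0.38, so the difference was not called. In bulk tissue, fewer cells of a type and less RNA per cell cannot be told apart.

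Counting error alone was wide at these depths. The exact 95% interval of miR-133a-3p ran from 0.254 to 7.56 CPM in knockout replicate 3, from its 2 reads, and from 3.78 to 9.13 CPM in wild type replicate 3. The nearest libraries of the groups were knockout replicate 2, at 4.81 CPM (3.38 to 6.63), and wild type replicate 3, at 6.03 CPM, whose intervals overlapped. An exact two-sided permutation test on log2(CPM + 1), added after seeing the data, gave p = 0.057 (n = 4 and 3), where the smallest p that 4 against 3 libraries can give is 0.029. The same exact test gave p = 0.83 for miR-208b-3p and p = 0.86 for miR-208a-5p. It weights libraries equally, whatever their depth. Knockout replicate 3, the shallowest, held the highest level of miR-208b-3p from 6 reads and the lowest of miR-208a-5p from 1 read. These p-values therefore do not show an absence of difference. For miR-208a-5p edgeR's unadjusted p was 0.147. Without wild type replicate 2 the log2 fold change of miR-133a-3p was -0.74 ± 0.37 (edgeR adjusted p = 0.41), and without knockout replicate 3 it was -0.79 ± 0.32 (edgeR adjusted p = 0.36). With both left out the log2 fold change was -0.69 ± 0.37 (edgeR adjusted p = 0.40).

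miR-208b-3p, the strand that in slow muscle and stressed heart accompanies beta myosin, did not separate the groups. It had 20, 18, 6 and 12 reads in knockout replicates 1 to 4, or 2.17, 2.34, 6.28 and 3.09 CPM. It had 9, 8 and 14 reads in wild type replicates 1 to 3, or 3.34, 3.62 and 3.84 CPM. The highest level came from the 6 reads of knockout replicate 3, and the other 3 knockouts lay below the wild types. The log2 fold change was -0.29 ± 0.41 (95% interval -1.18 to 0.60), and edgeR gave an adjusted p of 0.78.

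miR-208a-5p, the less known strand of the Myh6 hairpin, had 51, 39, 1 and 23 reads in knockout replicates 1 to 4, or 5.52, 5.07, 1.05 and 5.93 CPM. It had 12, 7 and 10 reads in wild type replicates 1 to 3, or 4.45, 3.17 and 2.74 CPM. Knockout replicate 3 was the lowest of all libraries, and the other 3 knockouts were the highest. The log2 fold change was 0.63 ± 0.40 (95% interval -0.26 to 1.51), and edgeR gave an adjusted p of 0.55. Without knockout replicate 3 it was 0.75 ± 0.32, with an unadjusted p of 0.040 and an edgeR adjusted p of 0.36. The 3 tested members thus had log2 fold changes of both signs, and whether they differed from each other was not tested.

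edgeR called 0 of these 3 members at an adjusted p under 0.05, where 1.12% of all 534 tested miRNAs were called (6, with 4 lower and 2 higher). At an unadjusted p under 0.05 there was 1 of the 3, miR-133a-3p, against 12.9% of all tested. limma-voom likewise called 0, with 1 at an unadjusted p under 0.05. DESeq2 gave no adjusted p for the 3, with 1 unadjusted p under 0.05. The groups did not overlap for 1 of the 3, against 11.8% of all tested in either direction and 8.24% with the knockouts lower. Their median log2 fold change was -0.29, beside -0.02 over all tested miRNAs. Precision at these levels was low: among the 128 tested miRNAs with a mean under 10 CPM the median standard error was 0.38, against 0.23 over all, and 0 were called.

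**Figure D2:**
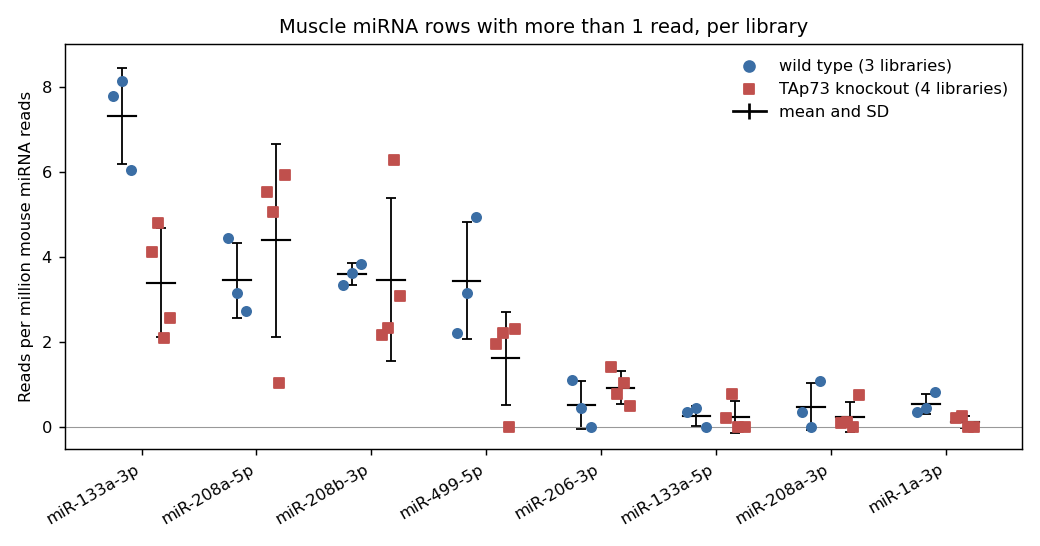
Level of the 8 muscle miRNAs with more than 1 read in each library (CPM), with wild types as blue circles, TAp73 knockouts as red squares, and the mean and SD in black. miR-133a-3p lies at 2.09 to 4.81 in knockouts and 6.03 to 8.14 in wild types, whereas the groups overlap for miR-208a-5p, miR-208b-3p and miR-499-5p.

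**Figure D3:**
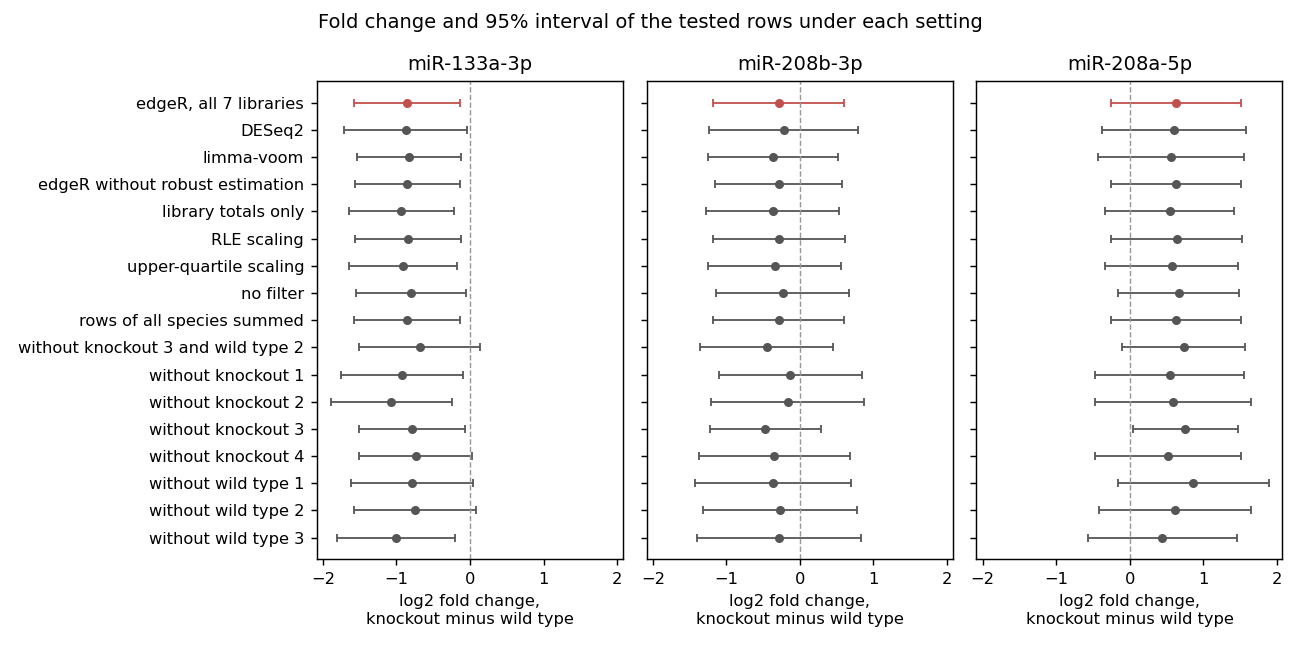
Log2 fold change, knockout minus wild type, of the 3 tested members with 95% intervals, from edgeR on all 7 libraries (red) and under each alternative that tested them (grey). The values stay below 0 for miR-133a-3p and miR-208b-3p and above 0 for miR-208a-5p, and the interval includes 0 for miR-133a-3p without knockout replicate 4, without wild type replicate 1 or 2 and without knockout replicate 3 and wild type replicate 2 together, in every setting for miR-208b-3p and in every setting except the omission of knockout replicate 3 for miR-208a-5p.

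The remaining members were too rare for the filter and had no test in the main comparison. miR-499-5p, which in heart and slow muscle acts beside the miR-208 3p strands through a related seed, had 18, 17, 0 and 9 reads in knockout replicates 1 to 4, or 1.95, 2.21, 0 and 2.32 CPM. In wild type replicates 1 to 3 it had 6, 7 and 18 reads, or 2.22, 3.17 and 4.94 CPM. The groups overlapped, and the highest level was that of wild type replicate 3. With no filter its log2 fold change was -0.70 ± 0.49 (edgeR adjusted p = 0.67).

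miR-206-3p, the skeletal muscle miRNA induced at denervated nerve-muscle junctions, had 13, 6, 1 and 2 reads in knockout replicates 1 to 4 and 3, 1 and 0 in wild type replicates 1 to 3. Its levels were 0.515 to 1.41 CPM among knockouts and 0 to 1.11 CPM among wild types, so that the groups overlapped. miR-1a-3p lay at 0 to 0.260 CPM among knockouts and 0.371 to 0.823 CPM among wild types. These ranges did not overlap, but each rested on at most 3 reads in a library and the difference was not detectable at this depth. miR-133a-5p had 2, 6, 0 and 0 reads in knockouts and 1, 1 and 0 in wild types. miR-208a-3p had 1, 1, 0 and 3 reads in knockouts and 1, 0 and 4 in wild types.

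Summed over all members, the level was 15.8, 16.4, 10.5 and 15.2 CPM in knockout replicates 1 to 4 and 20.0, 19.4 and 19.5 CPM in wild type replicates 1 to 3. The knockouts lay below the wild types, at 14.5 ± 2.70 CPM (SD, n = 4) against 19.6 ± 0.324 CPM (SD, n = 3). This gap rested mainly on miR-133a-3p: without it the sums were 8.38 to 12.6 CPM among knockouts and 11.3 to 13.4 CPM among wild types, which overlapped. The miR-208 family sum overlapped between the groups, at 8.11 ± 1.14 CPM among knockouts and 7.54 ± 0.697 CPM among wild types. The miR-133 sum was 3.65 ± 1.61 CPM among knockouts and 7.59 ± 1.37 CPM among wild types. The knockout minimum came from 10 reads in all, in knockout replicate 3.

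**Figure D4:**
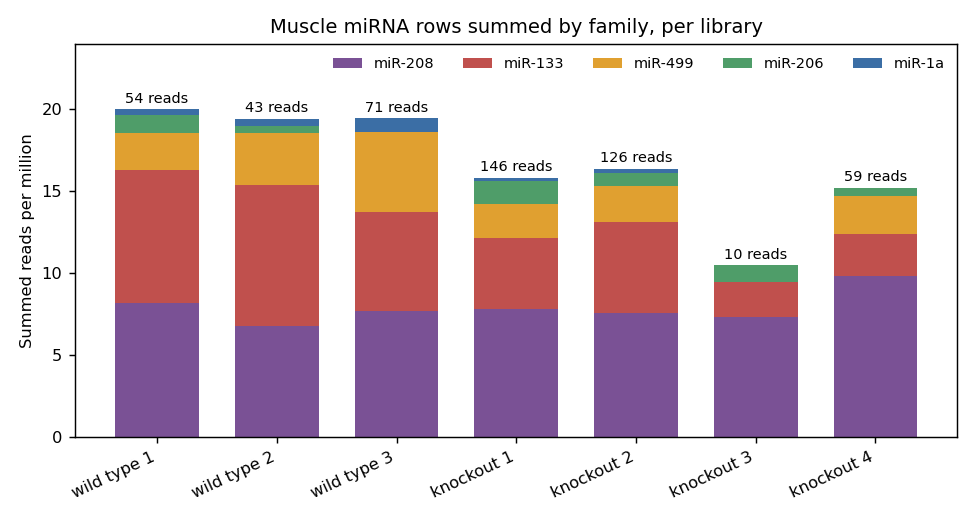
Summed level of the muscle miRNAs in each library (CPM), stacked by family, with the number of reads behind each bar. The miR-208 part stands between 6.78 and 9.79 in all 7 libraries, whereas the miR-133 part is 6.03 to 8.59 in wild types and 2.09 to 5.59 in knockouts.

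Other muscle-linked miRNAs, several of them also found in many tissues, covered a wide range of levels. Of a list of 15 names in 14 rows, 10 were tested, edgeR called 0 and 0 had an unadjusted p under 0.05. Of these 10, 6 were positive, with a median log2 fold change of 0.11, beside -0.02 over all tested. miR-22-3p, abundant in heart and in many other tissues, stood at 35942 ± 3410 CPM (SD, n = 7). miR-143-3p of smooth muscle stood at 17741 ± 3323 CPM, with a log2 fold change of -0.04 ± 0.16 (edgeR adjusted p = 0.92). The shared row of miR-486a-5p and miR-486b-5p, found in both striated muscle and erythroid cells, stood at 4009 ± 470 CPM with a log2 fold change of 0.17 ± 0.13 (edgeR adjusted p = 0.61). In the same list miR-143-5p, miR-490-5p, miR-486a-3p and miR-1b-3p stood at 2.85, 3.75, 0.218 and 0.0994 CPM, no higher than miR-133a-3p, and miR-1b-5p and miR-486b-3p had 0 reads.

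Markers of the other cell types the tissue could hold were set beside the lower values of miR-133a-3p and of the member sum. The summed smooth muscle and fibroblast markers were 15672 to 20470 CPM among knockouts and 15961 to 24526 CPM among wild types. Those of erythroid cells were 3764 to 5217 CPM among knockouts and 3859 to 4196 CPM among wild types. Both ranges overlapped between the groups. The erythroid sum was mostly the shared row of miR-486a-5p and miR-486b-5p, also found in striated muscle, with a mean of 4009 of 4185 CPM. The other erythroid markers, miR-451a, miR-144-3p and miR-144-5p, had log2 fold changes of 0.10, 0.54 and 0.55. edgeR called 0 of the erythroid rows, and miR-144-3p had an unadjusted p of 0.043. The sums for choroid plexus, neurons, oligodendrocytes, endothelium, leukocytes, pituitary and surface epithelia overlapped too. The pituitary mean was 422.6 CPM for knockouts and 732.9 CPM for wild types, of which wild type replicate 3 had 1347 CPM. In these lists edgeR called 0 rows, but some had an unadjusted p under 0.05, as 12.9% of all tested miRNAs did. These were miR-128-3p of neurons (log2 fold change 0.70), miR-7a-5p and miR-7b-5p of pituitary (-0.92 and -0.70) and miR-205-5p of surface epithelia (-0.88). The summed markers of multiciliated cells, from the miR-34 and miR-449 clusters, did not overlap, at 385.3 to 760.5 CPM for knockouts against 1291 to 3675 CPM for wild types. Most of this sum was miR-34c-5p, with a mean of 1346 of 1536 CPM. Their 6 tested rows were all 6 of the calls in the comparison, and the 2 clusters went opposite ways. The miR-34b and miR-34c strands were lower in knockouts (log2 fold changes -2.56 to -2.40). miR-449a-5p and miR-449c-5p were higher (2.67 and 3.12). The sums for neural progenitors and glia, miR-9-5p and miR-92b-3p, did not overlap either, at 35142 to 41206 CPM for knockouts and 28026 to 34322 CPM for wild types. Of this pair edgeR called 0, with 2 at an unadjusted p under 0.05. The part of these cell types in the values of miR-133a-3p was not tested.

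The miRNAs whose log2(CPM + 1) levels ran most alike with miR-133a-3p over the 7 libraries were miR-218-2-3p (Pearson r = 0.92), miR-136-5p (0.92) and the shared row of miR-669p-5p and miR-669a-5p (0.92). Those nearest to miR-208a-5p were miR-3060-3p (0.89), miR-195a-3p (0.88) and miR-210-3p (0.88). These are descriptions over 7 libraries that differ in depth, and the nearest were picked from 534 tested miRNAs. Knockout replicate 3 was the lowest library for each miRNA named as near to miR-208a-5p, such as miR-3060-3p, at 0 CPM against 4.07 to 5.31 CPM elsewhere. Of those near to miR-133a-3p it was lowest only for miR-218-2-3p, at 2.09 CPM against 2.58 to 5.93 CPM. Knockout replicate 4 was slightly lower for miR-136-5p (134.5 against 135.1 CPM) and for the miR-669p-5p and miR-669a-5p row (2.06 against 2.09 CPM). Both gaps were smaller than the 1.05 CPM of 1 read in knockout replicate 3. A count of 0 there allows up to 3.14 CPM. The part of depth in these likenesses was not tested.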

How the data were processed

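Total RNA was extracted with phenol and chloroform and sequenced with Illumina's TruSeq chemistry for small RNA, per the labels' protocols. Build mm10, DESeq2 and bcl2fastq 2.17.1.14 stand in the submitters' processing notes, with no role given. Aligner and counter were not given in the sources used here. As deposited, the authors' values are whole-number read counts, not normalized, for each small RNA name, 1 table of 66573 lines per library, of which 5 closing lines hold 0 reads. The kit has no molecular identifiers, so intervals and limits (3 reads for a count of 0) cover counting error only.

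From these counts, levels per 1000000 mouse miRNA reads were computed. The test over all mouse miRNAs was that of edgeR 4.0.16, run in R 4.3.3 (TMM scaling, filterByExpr with minimum count 10 and minimum total 15, robust quasi-likelihood, Benjamini-Hochberg, threshold 0.05), which left 534. The script was tested on simulated data. Alternatives used DESeq2 1.42.0, limma-voom (limma 3.58.1), other scalings and filters, rows of all species summed, and omitted libraries. Named were every member with a read and the 3 nearest patterns to each chosen member that was tested. The most abundant miRNA of a list was named for some of the lists described, not for all. The members and lists were chosen with earlier results of these data known. The labels give no replicate numbers and no batch: replicates are numbered here in accession order, which pairs no libraries.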

Additional observations from a re-analysis of the deposited data

Results flagged for a closer look

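A search for a library far from the rest of its group covered 9 values in the 4 knockouts, and 1 stood apart. miR-499-5p was at 0 CPM in knockout replicate 3 and at 1.95 to 2.32 CPM in the others. This gap was 0.841 of the range over the knockouts, past Dixon's limit for 4 samples. Chance alone marks about 1 in 20 such groups. In this library, the shallowest, a count of 0 allows up to 3.14 CPM, so a difference from the others was not detectable at this depth. The 3 wild types were too few for this search.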

How the results depend on the processing

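Under the 16 alternatives that tested them, the 3 tested members kept their direction. They were not called wherever an adjusted p was given, and DESeq2, 1 of the 16, gave them none. The alternatives refit the same libraries, so they are not independent of each other. The log2 fold change ran from -1.07 to -0.69 for miR-133a-3p, from -0.47 to -0.13 for miR-208b-3p and from 0.44 to 0.86 for miR-208a-5p. The adjusted p of miR-133a-3p ran from 0.27 to 0.57, and its unadjusted p was under 0.05 in 12 of the 16. With 10 CPM in at least 3 libraries no member was tested. The median of all tested miRNAs was -0.10 with library totals only. Over all mouse miRNAs, 6 were called, against 14 with DESeq2, 19 with no filter and 19 without knockout replicate 3 and wild type replicate 2 together, and 3 to 14 when single libraries were left out (3 without wild type replicate 1, 14 without wild type replicate 2).

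The summed level of 14.5 CPM among knockouts and 19.6 CPM among wild types was 11.1 and 12.3 CPM without its most abundant member, 8.11 and 7.54 CPM for miR-208 alone, and 3.65 and 7.59 CPM for miR-133 alone. The last 2 were added after seeing the data. With TMM scaling the wild type sum was 19.1 CPM. No paired analysis was possible because the labels give no replicate numbers, and the accession-order numbers used here only name the libraries. No member had more than 51 reads in any library.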
